A study of Saccharomyces cerevisiae with 7 samples.

Results

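The genes described here let budding yeast (Saccharomyces cerevisiae) take up allantoin, allantoate and urea and use them as a source of nitrogen. They were set by open reading frame name, 10 of the 6141 open reading frames in the table. Earlier results of these data were known when the genes were chosen. The 10 are DAL1 (YIR027C), DAL2 (YIR029W), DAL3 (YIR032C), DAL4 (YIR028W), DAL5 (YJR152W), DAL7 (YIR031C), DCG1 (YIR030C), DAL82 (YNL314W), DUR1,2 (YBR208C) and DUR3 (YHL016C). DUR1,2 has a row without a value in any library, DAL82 lacks a value at 2 h, and the other 8 were measured in all 7 libraries.

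Allantoin is a product of purine breakdown that yeast can store and degrade when better nitrogen sources run out. Permeases bring allantoin, allantoate and urea into the cell, allantoinase, allantoicase and ureidoglycolate lyase turn allantoin stepwise into urea and glyoxylate, and urea amidolyase splits urea into ammonia and carbon dioxide. In growing yeast most of these genes are known to be held down by good nitrogen sources such as ammonium and glutamine. GATA-type transcription factors switch them on when those sources run out. Several, but not all, are induced further by allophanate, an intermediate of urea breakdown, through Dal81 and Dal82. Starvation for nitrogen is also one of the signals that send diploid yeast into meiosis.

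All libraries came from a strain deleted for CLB5 and CLB6, cyclins that act at the start of S phase, with 1 library each at 1, 2, 3, 4, 5, 6 and 8 h of meiosis, no replicate at any time and no wild-type course analysed here. Values are log2 ratios of the mRNA present at each time against that of the 0 h cells, read on 2-colour arrays with sample cDNA in Cy5 and a mix of meiotic mRNA in Cy3. The last library is titled 8 h but has a source name of 6 h, and it is placed at 8 h below. The rest of the strain's genotype, the medium and the nitrogen source before and during the course are not given in the labels.

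Between 5625 and 5810 open reading frames had a value per library, the library medians lay between -0.01 and 0.09, and the number of arrays limits the precision of every value. The course carried the marks of meiosis: NDT80, the transcription factor of the middle sporulation genes, stood at -0.56 at 1 h and at 6.18 at 6 h, and the spore wall gene SPS2 reached 10.55 in the last library. CLB5 and CLB6 had ratios between -0.51 and 1.40 and between -0.53 and 1.27, but a ratio within the same strain gives no level, so the deletions could not be checked. By a straight line over time NDT80 and SPS2 rose and the meiotic inducer IME1 fell. IME1 first climbed from 0.76 at 1 h to 1.45 at 4 h, then dropped to -1.29 in the last library. The kinase IME2 and the chromosome axis gene HOP1 changed by the spline explained below. In such bulk samples fewer cells that express a gene and less of its RNA per cell cannot be told apart.

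Most of the measured allantoin genes were highest in the first library, at 1 h, and lost most of that excess by 4 h. DAL3 and DAL5 were 25.7-fold and 29.7-fold above their 0 h level at 1 h, DAL4 13.8-fold and DCG1 5.21-fold. The highest value of the course was at 1 h in 7 of the 8 genes measured throughout, DUR3 being the exception, whereas 23.6% of all genes measured throughout were highest then. That peak was not particular to the allantoin genes. Among related genes described below, 10 of 14 other poor-nitrogen genes, 4 of 6 nitrogen regulators and 3 of 4 ammonium assimilation genes were also highest at 1 h. After 4 h the allantoin genes parted: DAL4 and DCG1 went up again, DAL2 and DAL7 stayed below their 0 h level, and DAL3 came close to it. DAL5 was lowest at 5 h with 0.92 and ended at 1.92. From 6 h to the last library, 6 of the 9 genes went up, among them DAL5 by 0.84 and DAL82 by 0.81, and 3 went down. Of all genes 48.2% went down in that step.

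**Figure D1:**
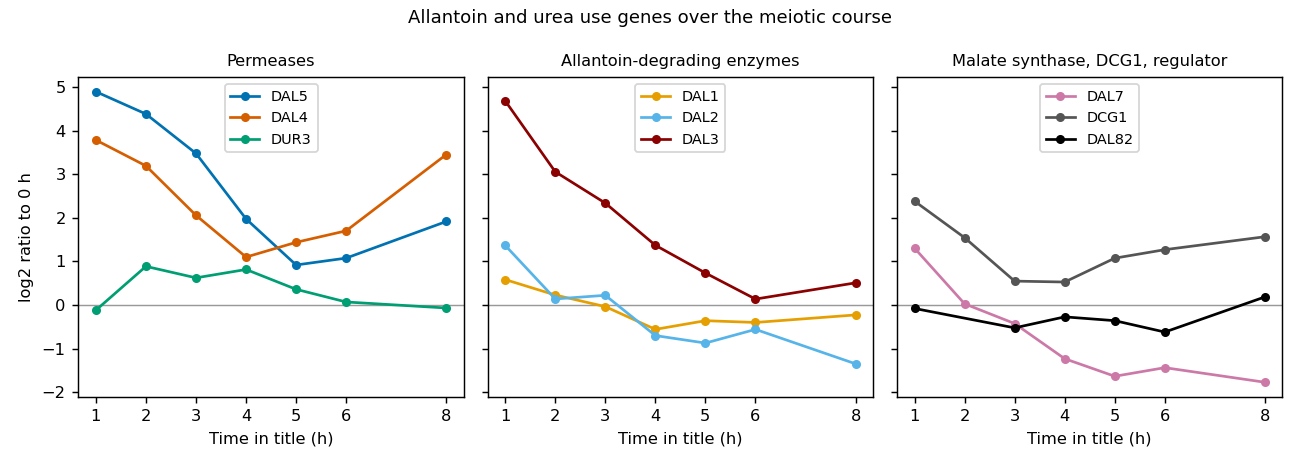
Log2 ratio to 0 h (vertical axis) against the time in each library's title in hours (horizontal axis), 1 point per gene and library, with the permeases, the enzymes of allantoin breakdown and the remaining genes in separate panels; DAL82 has no point at 2 h and DUR1,2 none at all. DAL5 and DAL3 start at 4.89 and 4.68, DAL4 falls to 1.10 at 4 h and returns to 3.45, and DUR3 and DAL82 stay between -0.62 and 0.89.

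With 1 library per time, only a trend over the course could be tested. A slope per hour was fitted with limma to the 5349 genes with a value in all 7 libraries, and a natural spline (2 degrees of freedom) was fitted beside it to find courses that bend. Below, "fell" and "rose" mean a slope with a Benjamini-Hochberg adjusted p under 0.05 over all fitted genes, and "changed" means the same for the spline. Of the 8 allantoin and urea genes fitted, 4 fell along the line (DAL2, DAL3, DAL5 and DAL7) and none rose, against 15.1% of all fitted genes that fell and 18% that rose. The spline found that 7 of the 8 changed, all but DUR3, against 61% of all genes, so most genes of any kind changed by that test. The median slope of the 8 was -0.23 log2 units per h, and that of all genes -0.01. As 1 course was sampled, the p-values take their error from the scatter of its successive samples about a curve, and not the spread between cultures. The line leaves 5 residual degrees of freedom per gene, and limma (eBayes) then moderates each gene's error with that of all fitted genes.

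The permeases differed from each other. DAL5, the permease for allantoate, stood at 4.89 at 1 h, 4.38 at 2 h, 3.48 at 3 h, 1.97 at 4 h, 0.92 at 5 h, 1.08 at 6 h, then 1.92 in the last library. It was thus above its 0 h level in all 7 libraries, most of all in the first 3, and it fell (slope -0.54 ± 0.13 per h, SE, limma adjusted p = 0.0137). With the 2 h library left out the slope was -0.49 with a limma adjusted p of 0.0501, the highest of its alternatives, which began at 0.000491. The slope was steeper without the last library (-0.88) and under quantile normalization (-0.91).

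DAL4, the permease for allantoin, also stood above 0 h in every library, but its course had the shape of a trough. Its values were 3.78 at 1 h, 3.19 at 2 h, 2.06 at 3 h, 1.10 at 4 h, 1.44 at 5 h, 1.70 at 6 h, then 3.45 in the last library. The last value is 3.36-fold above the one at 6 h and, as a log2 ratio, nearly back at the one at 1 h. The ratios of all genes were more widely spread by then, with an SD of 0.96 at 1 h and 1.65 in the last library. A straight line did not describe this course (slope -0.10 ± 0.15 per h, limma adjusted p = 0.625), while by the spline DAL4 changed (limma adjusted p = 0.000177). Without the last library its slope was -0.47 with a limma adjusted p of 0.017, and without the 1 h library 0.07 with one of 0.756, and over all alternatives the adjusted p lay between 0.017 and 0.847.

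DUR3, which carries urea and polyamines, had no excess over 0 h at 1 h. It stood at -0.12 at 1 h, 0.89 at 2 h, 0.62 at 3 h, 0.82 at 4 h, 0.36 at 5 h, 0.07 at 6 h, then -0.07 in the last library. It never reached 2-fold above 0 h, its lowest value was the first, and neither its slope (-0.06 ± 0.06 per h, limma adjusted p = 0.475) nor its spline (limma adjusted p = 0.118) passed the test. With the 1 h library left out the slope was -0.17 with a limma adjusted p of 0.0179, the lowest of alternatives that reached 0.931, and the spline then had an adjusted p of 0.0194. The spline also passed without the last library (limma adjusted p = 0.0473) and with that library placed at 6 h (0.0452), and reached 0.256 over its alternatives.

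The enzymes that degrade allantoin were all highest at 1 h but differed in the size of that excess. DAL1, the allantoinase that opens the allantoin ring, had 0.58 at 1 h, 0.23 at 2 h, -0.04 at 3 h, -0.56 at 4 h, -0.36 at 5 h, -0.40 at 6 h, then -0.23 in the last library. These values span the narrowest range of the 6 genes of the cluster, from above the 0 h level to a little below it. By the spline DAL1 changed (limma adjusted p = 0.00559, and 0.0625 without the 1 h library, where the alternatives began at 0.00529). Its slope of -0.12 ± 0.05 per h did not pass (limma adjusted p = 0.109), except without the last library (-0.21, 0.0282), and the alternatives reached 0.35.

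DAL2, the allantoicase that splits allantoate, had ratios of 1.37 at 1 h, 0.14 at 2 h, 0.22 at 3 h, -0.70 at 4 h, -0.87 at 5 h, -0.56 at 6 h, then -1.35 in the last library. It was 2.58-fold above 0 h in the first library and below 0 h in the last 4, and it fell (slope -0.34 ± 0.06 per h, limma adjusted p = 0.00467). DAL3, the ureidoglycolate lyase that releases urea and glyoxylate, stood at 4.68 at 1 h, 3.06 at 2 h, 2.34 at 3 h, 1.37 at 4 h, 0.73 at 5 h, 0.14 at 6 h, then 0.51 in the last library. It lost height in each step up to 6 h, by a factor of 23.3 in all from 1 h to 6 h, and fell with the steepest slope of the 8 genes (-0.61 ± 0.10 per h, limma adjusted p = 0.00267). No value could be given for the next step of the pathway, since DUR1,2, the urea amidolyase, was without a value in all 7 libraries.

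DAL7 codes for a malate synthase that joins the glyoxylate from allantoin to acetyl-CoA. Its ratios were 1.30 at 1 h, 0.03 at 2 h, -0.42 at 3 h, -1.23 at 4 h, -1.63 at 5 h, -1.44 at 6 h, then -1.77 in the last library. It went furthest below its 0 h level of the 9 measured genes and fell (slope -0.41 ± 0.08 per h, limma adjusted p = 0.00427). MLS1, its close paralog of the glyoxylate cycle, fell too (slope -0.49 ± 0.04 per h, limma adjusted p = 0.000381). How far a probe for either gene also reads the other was not tested.

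DCG1 lies in the cluster and is known to respond to nitrogen supply, but its function is not known. Its ratios were 2.38 at 1 h, 1.54 at 2 h, 0.55 at 3 h, 0.53 at 4 h, 1.07 at 5 h, 1.27 at 6 h, then 1.57 in the last library. Like DAL4 it was above 0 h in all 7 libraries and lowest at 4 h. It changed by the spline (limma adjusted p = 0.0121, and 0.132 without the 1 h library, where the alternatives began at 0.00118), and its slope of -0.06 ± 0.09 per h did not pass (limma adjusted p = 0.632).

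DAL82, the DNA-binding activator that answers to allophanate, had the narrowest range of the 9 measured genes, 0.81 log2 units. It stood at -0.08 at 1 h, -0.52 at 3 h, -0.27 at 4 h, -0.36 at 5 h, -0.62 at 6 h, then 0.19 in the last library. With the fit widened to genes with 5 or more values, its slope was 0.03 ± 0.06 per h (limma adjusted p = 0.763) and its spline had a limma adjusted p of 0.191.

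Seen library by library, the excess over 0 h was largest at 1 h and then thinned out. At 1 h, 6 of the 9 genes with a value were at least 2-fold above 0 h and none 2-fold below, where 12% of all genes were 2-fold above and 12.1% 2-fold below. At 2 h, 4 of 8 were 2-fold above, against 12.9% of all genes, and at 3 h, 3 of 9 against 13.8%, while none were 2-fold below at either time (12.3% and 13% of all genes). The count stood at 3 against 17.6% at 4 h, 2 against 18.8% at 5 h, 3 against 19.6% at 6 h and 3 against 22.7% in the last library. DAL7 alone was 2-fold below 0 h at 4, 5 and 6 h, when 15.7%, 18.2% and 19.3% of all genes were that low, and DAL2 joined it in the last library (20.5% of all genes). The genes had median ratios of 1.37 at 1 h, 1.22 at 2 h, 0.55 at 3 h, 0.53 at 4 h, 0.36 at 5 h, 0.07 at 6 h, then 0.19 in the last library. All libraries share the 0 h array, so these counts are not independent of each other and have no replicate check.

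The place of a gene among all genes of its library does not move with the centring or the spread of that library. By that measure DAL5, DAL3 and DAL4 were at percentiles 99.9, 99.9 and 99.8 at 1 h. DAL3 sank to percentile 54.3 at 6 h, while DAL4 was lowest at percentile 84.5 at 4 h and back at 96.2 in the last library. DAL7 went from percentile 93.5 at 1 h to 8.41 in the last library, the widest way through the ranking among these genes. DUR3 moved from percentile 39.2 at 1 h to 84.5 at 2 h and back to 48.0 in the last library.

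**Figure D2:**
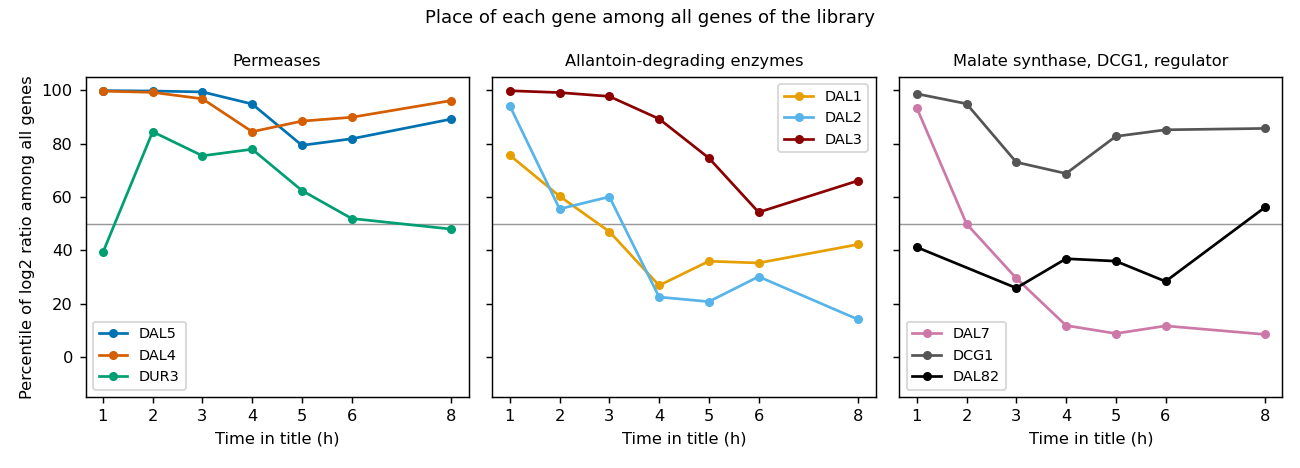
Percentile of each gene's log2 ratio among all genes with a value in the same library (vertical axis) against the time in the title in hours (horizontal axis), in the same panels as the plot of log2 ratios; the grey line marks the middle of all genes. DAL5, DAL4 and DAL3 start above percentile 99, DAL7 ends at 8.41, and DAL4 returns to 96.2.

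Because several of these courses turned at 4 h, a line with a bend at 4 h was fitted to all genes with limma. That shape was chosen after the values had been seen, so its p-values are too favourable for these genes, and "rose" and "fell" refer to its slopes before and after 4 h. Between 1 and 4 h, 7 of the 8 genes fell, all but DUR3, and none rose, against 12.2% of all genes that fell and 11.4% that rose. DAL5 and DAL3 had early slopes of -1.20 ± 0.18 and -1.16 ± 0.12 per h (limma adjusted p = 0.00373 and 0.00103), DAL4 one of -0.999 ± 0.102 (0.00103) and DAL7 one of -0.83 ± 0.09 (0.00103). DAL2, DCG1 and DAL1 had early slopes between -0.59 and -0.36. Under quantile normalization the early slopes of DAL3, DAL4 and DCG1 were -1.77, -1.65 and -1.002. Without the 1 h library 4 of the 8 fell in this part, and DAL1, DAL2 and DCG1 did not pass (limma adjusted p = 0.0898, 0.196 and 0.205).

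After 4 h, DAL4 and DCG1 rose, 2 of the 8 genes, and none fell, against 22% of all genes that rose and 20.4% that fell. The count is therefore near that of all genes. DAL4 rose by 0.57 ± 0.08 per h (limma adjusted p = 0.00107, between 0.000731 and 0.135 over the alternatives). That rise rests on 1 library: without the last library the late slope was 0.27 (limma adjusted p = 0.135), and with that library placed at 6 h it was 0.73 (0.0744). Under quantile normalization it was 0.32 (limma adjusted p = 0.0137). DCG1 rose by 0.31 ± 0.09 per h (limma adjusted p = 0.0199, between 0.016 and 0.143 over the alternatives). It did not pass with libraries brought to the same spread (0.24, limma adjusted p = 0.094), under quantile normalization (0.26, 0.143), without the 4 h library (0.33, 0.0609) or without the last library (0.52, 0.0614), and it passed with that library placed at 6 h (0.57, 0.0278). The late slopes of DAL3 (-0.20 ± 0.10) and DUR3 (-0.25 ± 0.09) did not pass (limma adjusted p = 0.127 and 0.0507). DAL3 did pass without the last library (-0.56, limma adjusted p = 0.0329) and with that library placed at 6 h (-0.47, 0.0417), while its other alternatives reached 0.524. DUR3 passed without the 2 h library (-0.23, limma adjusted p = 0.0278), without the 1 h library (-0.20, 0.0411) and with robust eBayes (-0.25, 0.0462), while its other alternatives reached 0.155.

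**Figure D3:**
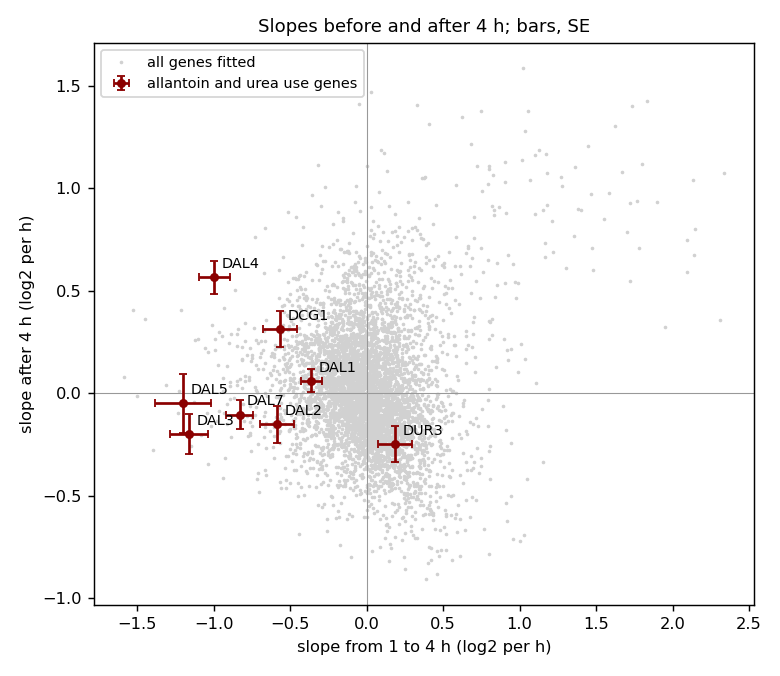
Slope from 1 to 4 h (horizontal axis, log2 units per h) against slope after 4 h (vertical axis, log2 units per h) from the line with a bend at 4 h, with grey dots for all 5349 fitted genes and red points with SE bars for the 8 allantoin and urea genes. DAL4 lies at -0.999 and 0.566, while DAL3 and DAL5 have early slopes of -1.16 and -1.20 and late slopes of -0.20 and -0.05.

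A course that drops at least 2-fold between 1 and 4 h and regains at least 2-fold by the last library was rare in the table, at 2.22% of the 5501 genes with those values. DAL4 and DCG1 had it, and their last values were 5.10-fold and 2.05-fold above those at 4 h. This description was chosen after the values were seen, and it carries no test.

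DAL1, DAL4, DAL2, DCG1, DAL7 and DAL3 lie side by side in this order on chromosome IX, the allantoin gene cluster, while DAL5, DAL82, DUR1,2 and DUR3 lie on other chromosomes. All 6 cluster genes were above 0 h at 1 h and all 6 changed by the spline, as did 55.1% and 61% of all genes. All 6 also fell between 1 and 4 h, against 12.2% of all genes. Neighbours within the cluster did not keep the same course afterwards. From 6 h to the last library the difference was 1.75 for DAL4 but -0.79 for DAL2, next to it, and 0.30 for DCG1 but -0.33 for DAL7, next to it. DAL1 and DAL4 are read in opposite directions from the stretch between them, and the difference in that step was 0.17 for DAL1. These differences are between single libraries and carry no test, and the last library has a source name of 6 h. From 4 h to 6 h DAL4 went from 1.10 to 1.70 and DAL2 from -0.70 to -0.56. In the same step DCG1 went from 0.53 to 1.27 and DAL7 from -1.23 to -1.44. In a description over the 7 successive libraries of 1 course, DAL2 and DAL7 correlated with Pearson's r = 0.974 and DAL4 and DCG1 with 0.836, whereas DAL4 and DAL2 did with 0.454.

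**Figure D4:**
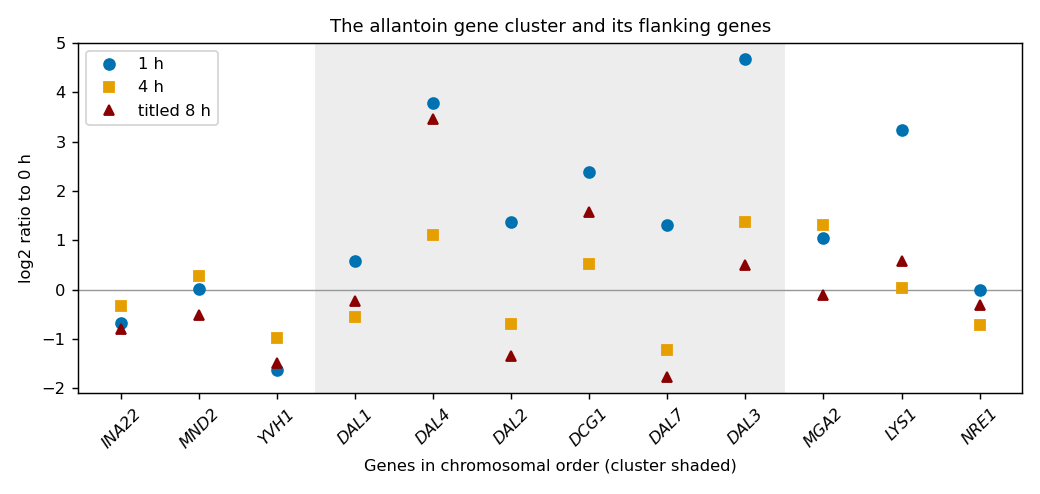
Log2 ratio to 0 h (vertical axis) of the 6 cluster genes (shaded) and the 3 genes on each side in chromosomal order (horizontal axis), at 1 h (circles), 4 h (squares) and in the last library (triangles). The circles of all 6 cluster genes lie above the squares, and the triangles of DAL4 and DCG1 lie above their squares by 2.35 and 1.04.

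Of the 6 genes on both sides of the cluster, 2 fell before 4 h, against 12.2% of all genes, and none rose. On the DAL1 side, INA22, a mitochondrial protein, MND2, a subunit of the anaphase-promoting complex that acts in meiosis, and the phosphatase YVH1 had early slopes of 0.12, 0.10 and 0.15 per h, and none of these passed (limma adjusted p = 0.352, 0.319 and 0.374). On the DAL3 side, MGA2, a regulator of fatty acid desaturation, had an early slope of 0.02 (limma adjusted p = 0.908), whereas LYS1, the last enzyme of lysine synthesis, fell by 1.06 ± 0.13 per h (0.00204) and NRE1 by 0.25 ± 0.08 (0.0427). After 4 h MND2 and MGA2 fell (limma adjusted p = 0.0291 and 0.0118), 2 of 6 against 20.4% of all genes, and no flanking gene rose.

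Among the regulators of these genes, GAT1 and DAL80 were above their 0 h level at 1 h by more than 2-fold. The GATA-type activator GAT1 stood at 2.80 at 1 h and 0.07 at 4 h, and it changed by the spline (limma adjusted p = 0.00105). DAL80, the GATA-type repressor, was between 7.37-fold and 15.3-fold above 0 h throughout, highest at 2 h, and it also changed (limma adjusted p = 0.0484). GLN3, the activator kept out of the nucleus by Ure2, lay between -0.31 and 0.70, URE2 between -0.34 and 0.18, and DAL81, the partner of Dal82, between 0.06 and 0.54. None of those last 3 passed either test (limma adjusted p between 0.471 and 0.991). GZF3, a repressor related to DAL80, fell from 0.65 at 1 h to -1.02 in the last library (slope -0.25 ± 0.05 per h, limma adjusted p = 0.00557). Of the 6 regulators 1 fell, none rose and 3 changed by the spline, against 15.1%, 18% and 61% of all genes. On the line with a bend at 4 h, 3 of the 6 fell before 4 h, against 12.2% of all genes.

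Most other genes for the use of poor nitrogen sources also fell. Of 18 listed, 14 were fitted. On the line with a bend at 4 h, 7 of the 14 fell before 4 h, against 12.2% of all genes. Along the straight line 10 fell and none rose, and 12 changed by the spline, against 15.1%, 18% and 61% of all genes. The median slope of the 14 along the straight line was -0.30 per h. The steepest were the ammonium permease MEP2 (-0.76 ± 0.12), the general amino acid permease GAP1 (-0.64 ± 0.10), the ornithine aminotransferase CAR2 (-0.42 ± 0.06), the ammonium permease MEP1 (-0.35 ± 0.05) and the acidic amino acid permease DIP5 (-0.31 ± 0.07), with limma adjusted p between 0.00103 and 0.00721. CAR2 lost most of its height late, from 0.83 at 6 h to -0.84 in the last library. UGA3, the activator of the genes for gamma-aminobutyrate use and chosen after its values were seen, shared the trough of DAL4 and DCG1, with 1.91 at 1 h, 0.06 at 4 h, then 1.58 in the last library.

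Of the 4 genes that build glutamate and glutamine from ammonium, 3 fell along the line and none rose, against 15.1% and 18% of all genes. On the line with a bend at 4 h, 2 of the 4 fell before 4 h, against 12.2% of all genes. The glutamate synthase GLT1 fell from 3.18 at 1 h to -0.19 in the last library (slope -0.50 ± 0.05 per h, limma adjusted p = 0.000566), and the glutamate dehydrogenases GDH3 (-0.45 ± 0.09) and GDH1 (-0.23 ± 0.05) fell as well (limma adjusted p = 0.00464 and 0.0105). GLN1, glutamine synthetase, had a slope of 0.11 ± 0.05 that did not pass (0.168).

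**Figure D5:**
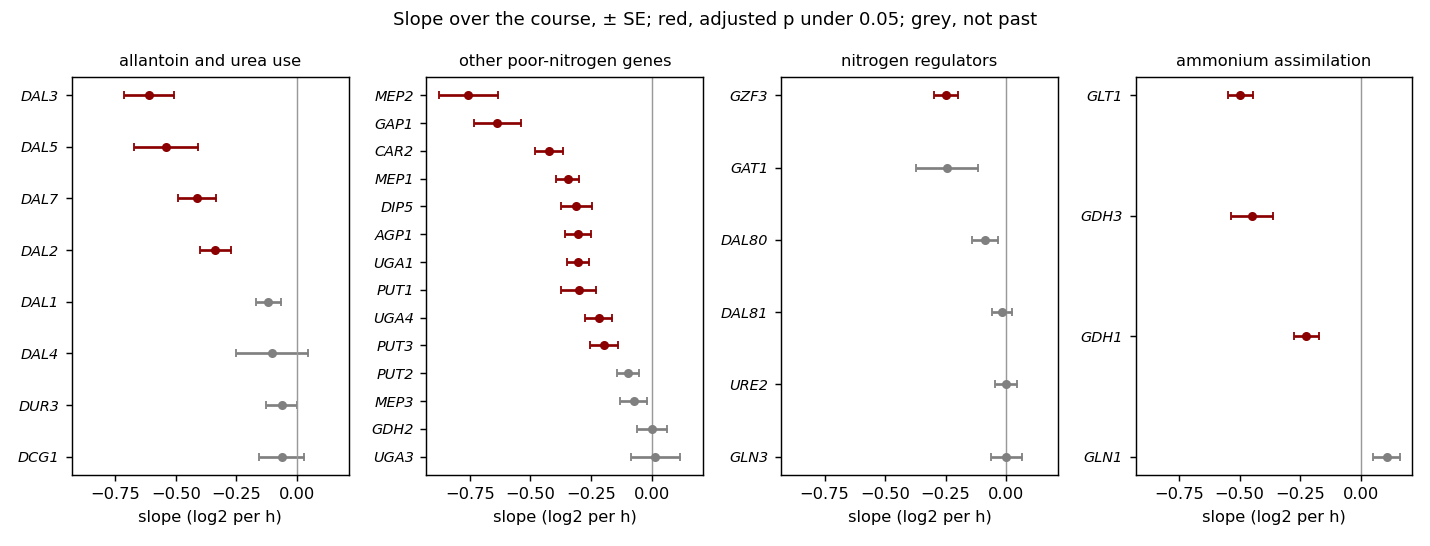
Slope over the 7 libraries in log2 units per h (horizontal axis) with SE bars for the fitted genes of 4 lists, red where the limma adjusted p is under 0.05 and grey where it is not. DAL3, DAL5, DAL7 and DAL2 are the red points among the allantoin and urea genes, and 10 of 14 other poor-nitrogen genes are red.

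The genes whose courses were most like those of the allantoin genes were sought among all genes measured throughout, by Pearson's r over the 7 libraries and a root mean square difference under 1 log2 unit. DAL3 was closest to GAP1, with r = 0.998 and a difference of 0.26. DAL5 was closest to SNO1, GAP1 and SNZ1 (r between 0.954 and 0.959), SNO1 and SNZ1 being neighbours that act in vitamin B6 synthesis. DAL7 was closest to BAT1, ILV3 and ARO8, all of amino acid metabolism, with r between 0.993 and 0.995, and DAL2 to DAL7, BAT1 and GRS2. DAL1 was closest to LEU4, LYS12 and MET10, enzymes of leucine, lysine and sulfur amino acid synthesis, with r between 0.969 and 0.980.

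The number of genes within that difference ran from 4 for DAL5 and 8 for DAL4 to 3139 for DAL1, so the best r values of the genes cannot be ranked against each other. The best for DAL4 were GID10 and YNR068C, with r = 0.865 and 0.858, and SNO1 with 0.644. DCG1 was closest to OPT1, an oligopeptide transporter (r = 0.972), and to YMR155W and YNR068C (0.912 and 0.909), so that YNR068C is near both. DUR3 was closest to PET130, RDR1 and SHO1, with r between 0.970 and 0.975, and the median course, over the 9 genes with values (8 of them at 2 h), to ARG7, ATG19 and MIX17, with r between 0.974 and 0.985. These are descriptions over 7 libraries of 1 course that share the 0 h array.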

How the data were processed

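The deposited values are log2 ratios, 1 row per open reading frame: per the labels, the ratio of sample (Cy5) to meiotic mix (Cy3) was divided by that of the 0 h sample. How background, dim spots and differences between arrays were handled is not stated in the sources used here, and no spot intensities were used. A library's title set its time. Symbols and neighbours came from the RefSeq gene table of assembly R64, which matched 5655 of 6141 names. No sequences were given for this series and the build behind the array is not given, so no sequence or coordinate is printed.

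Slopes, splines with 2 degrees of freedom and the bent line were fitted with limma 3.58.1 (lmFit, eBayes) in R 4.3.3 on 5349 genes, with Benjamini-Hochberg adjustment at 0.05. The fits were also run on simulated data with independent noise in each library. Successive samples of 1 course may differ from that, so the simulation cannot show whether the p-values hold here. Tables and plots used Python 3.11.15, pandas 2.3.3 and matplotlib 3.10.9. The genes and lists were chosen with earlier results of these data known. Named were all 10 genes, all genes of 5 lists, the 5 steepest each of the other poor-nitrogen genes and the transporter relatives, and the 3 most similar genes of each course. The alternatives were quantile normalization, centring, equal spread (median absolute deviation), a baseline of 1 h, other folds, the rank of the times, a time of 6 h for the last library, genes with 5 or more values, robust eBayes, the cluster alone, and leaving out each library.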

Additional observations from a re-analysis of the deposited data

How the results depend on the processing

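The counts of genes that fell or rose along the line and changed by the spline stayed within 1.5 times under all alternatives run, with 3 to 6 that fell without any 1 library. Without any 1 library the slope of DAL4 lay between -0.47 and 0.068 and that of DCG1 between -0.20 and 0.081, both turning upward without the 1 h library. With equal spread and after quantile normalization these slopes were -0.36 and -0.52 for DAL4, against -0.10, and -0.20 and -0.28 for DCG1, against -0.06. For the bent line, the count that rose late was 1 with equal spread, after quantile normalization and with the last library placed at 6 h, and between 0 and 2 without any 1 library. The count that fell late was 1 with robust eBayes and with the last library placed at 6 h, and 0 or 1 without any 1 library, and the count that fell early was 4 to 7.

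The median of the genes at 1 and 2 h was 1.76 and 1.53 with equal spread, 1.95 and 1.59 after quantile normalization, and 1.87 and 0.89 for the cluster alone, whose median at 4 h was -0.015. With the 1 h library as baseline the medians at 2, 3, 4, 5, 6 and 8 h were -0.71, -1.42, -2.07, -2.24, -1.93 and -0.82, with 1, 0, 0, 0, 0 and 0 genes 2-fold higher and 3, 6, 7, 6, 6 and 4 lower, where 2.81%, 6.18%, 9.65%, 12.3%, 13.3% and 17.1% of all genes were lower and 3.55% to 18.8% higher. At 3-fold, 1, 0 and 1 were higher at 4, 5 and 6 h, and 0, 0 and 1 lower at 4, 6 and 8 h, against 7.49% to 10.9% of all genes. At 1.5-fold, 4 were higher at 5 h and 2 lower at each of 4, 5 and 6 h, against 25.9% to 29.9% of all genes. At 5 h, 1 was 2-fold higher with equal spread and after quantile normalization. No paired analysis was possible because each time point has 1 library. The signal above background behind a ratio is not known.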

Other observations

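Relatives of the permeases were listed beside the allantoin genes. Of 12, 10 were fitted, 2 rose and none fell along the line, and 6 changed by the spline. Of all genes 18% rose, 15.1% fell and 61% changed, so the counts that rose and changed are near those of all genes. On the line with a bend at 4 h, 4 of the 10 fell before 4 h, against 12.2% of all genes. VHT1 and YCT1 were among these, with early slopes of -1.10 and -0.99 per h (limma adjusted p = 0.00114 and 0.00139). The uridine permease FUI1, of the same family as DAL4, went from -1.58 at 1 h through -2.29 at 4 h up to -0.32 in the last library, and rose (slope 0.26 ± 0.08 per h, limma adjusted p = 0.0401). SEO1, a relative of DAL5, rose from 0.50 at 1 h to 2.59 (0.41 ± 0.08, 0.0052). The biotin permease VHT1, YCT1 and THI73, also of the DAL5 family, changed by the spline (limma adjusted p = 0.000182, 0.000117 and 0.00148). YCT1, a cysteine transporter, began at 1.59 at 1 h, stood at -1.16 at 4 h, was lowest at 6 h with -1.46 and ended at -0.24.

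Of the other genes that make or use glyoxylate, AGX1, an aminotransferase that makes glycine from glyoxylate, was far below its 0 h level throughout, between -3.14 and -2.11, and did not pass by its slope (-0.06 ± 0.05, limma adjusted p = 0.411). ICL1, isocitrate lyase, had a slope of 0.02 ± 0.04 that did not pass (0.718).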
